A study of Mus musculus with 8 samples.

Results

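The 10 genes described here are Trp53, which encodes the transcription factor p53, its regulators Mdm2 and Mdm4, and 7 genes that p53 induces, namely Cdkn1a, Ccng1, Plk2, Trp53inp1, Phlda3, Eda2r and Zmat3. They were chosen by name and not by a measured value, but with earlier results of these data known. They are 10 of the 38991 genes with a deposited level. All 10 were among the 12927 genes that were tested, those with a level of at least 1 in at least 2 cultures. Levels are FPKM, read numbers divided by transcript length and library size, so that levels of different genes can be compared per length.

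The cells were RGd2 mouse ESCs, 129 strain embryonic stem cells at passage 11 in which a destabilised GFP reports on the pluripotency gene Rex1. All cultures share this reporter, an expansion in 2i for 6 passages and a further 5 passages on gelatin in serum-free N2B27 medium with a split every 3 days to 15000 cells/cm2. Each condition held 2 cultures. The 4 conditions were 2i+LIF (CH at 3 µM, PD at 1 µM and the cytokine LIF), 2i (CH and PD without LIF), LIF+PD (no CH) and CH+LIF (no PD), where CH is the GSK3 inhibitor CHIR99021 and PD the MEK inhibitor PD0325901. Each of the last 3 conditions therefore lacked 1 component of 2i+LIF, and none of them is a model of DNA damage or of a loss of p53. The sources do not say whether the cultures of a condition were derived separately, and p-values here measure only the spread between these cultures.

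p53 is a tetrameric DNA-binding protein that is made continuously and degraded continuously, so its activity is set mainly by protein stability and modification and not by the level of its mRNA. Mdm2 is the ubiquitin ligase that marks p53 for degradation, and it is itself a target of p53, which closes a feedback loop. Mdm4 is an Mdm2 relative that binds p53 and blocks its activity. Among the targets, Cdkn1a encodes p21, an inhibitor of cyclin-dependent kinases. Mouse ESCs are often described as having a short G1 phase and little p21 protein, but neither was measured in these conditions. The mean Cdkn1a level over the 8 cultures lay above that of 87.5% of the tested genes.

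p53 binds an element made of 2 copies of a half-site of 10 bases, which reads alike on both strands. RefSeq promoter windows, from 250 bases before to 50 bases after a start (build GRCm38.p6), were found for 8 of the 10 genes, in 10 windows, and not for Trp53inp1 and Zmat3. An exact half-site was found in 4 of these 10 windows, against 8.36% of all 32851 windows. An unspaced full element, with at most 1 base off outside the fixed C and G of each half-site, was found in 2, those of Cdkn1a and Ccng1, against 0.067% of all windows. These 2 windows are printed whole because the 2 genes moved in opposite directions in LIF+PD, and capitals mark the full element of 20 bases. The Cdkn1a window is chr17:29090729-29091028 on the + strand with the element from -51 to -32 relative to the start, and the Ccng1 window is chr11:40755237-40755536 on the - strand with the element from -195 to -176.
Cdkn1a: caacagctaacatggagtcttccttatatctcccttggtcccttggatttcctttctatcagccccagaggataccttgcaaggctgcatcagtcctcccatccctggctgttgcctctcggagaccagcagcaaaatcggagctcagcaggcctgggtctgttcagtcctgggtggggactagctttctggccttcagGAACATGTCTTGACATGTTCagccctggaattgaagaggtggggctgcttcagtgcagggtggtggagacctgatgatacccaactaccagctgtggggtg
Ccng1: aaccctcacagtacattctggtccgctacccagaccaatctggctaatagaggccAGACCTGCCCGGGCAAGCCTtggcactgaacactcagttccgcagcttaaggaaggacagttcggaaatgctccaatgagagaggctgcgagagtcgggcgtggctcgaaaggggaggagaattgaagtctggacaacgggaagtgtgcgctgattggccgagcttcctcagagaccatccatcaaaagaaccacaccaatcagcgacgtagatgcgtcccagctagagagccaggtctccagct
Outside the full elements, exact half-sites were found in 3 of the windows. That of Cdkn1a lies from -73 to -64 (chr17:29090906-29090915, + strand), in lower case in the window above. Those at -186 to -177 of Mdm2 (chr10:117710935-117710944, - strand) and at -75 to -66 of Trp53 (chr11:69580284-69580293, + strand) are printed with 20 bases on either side, the half-site in capitals.
Mdm2: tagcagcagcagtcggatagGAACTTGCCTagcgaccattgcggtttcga
Trp53: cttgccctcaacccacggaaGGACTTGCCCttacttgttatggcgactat
No match was found in the windows of Plk2, Phlda3, Eda2r, Mdm4 or the second start of Cdkn1a. A match describes the letters of these windows only, and elements in introns or farther upstream were not read.

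The replicate cultures of a condition correlated at r = 0.974 to 0.983 over the tested genes. Relative depth, estimated from the steps between low values, was 0.499 in replicate 1 of 2i and 0.903 to 1.18 in the others, with replicate 1 of 2i+LIF set to 1, so levels in replicate 1 of 2i are the least precise. All 7 naive ESC markers were above an FPKM of 1 in every culture, with a sum of 2932 to 3807. Markers of other cell types had lower sums, which moved with the conditions, though single ones were not low, such as Dnmt3b at up to 68.8. The 5 formative or primed epiblast markers summed to 41.1 to 44.02 in 2i+LIF, 93.6 to 120.4 in 2i, 100.7 to 109 in LIF+PD and 87.0 to 103 in CH+LIF, with Fgf5 at 0 in both 2i+LIF cultures. The 4 mesoderm markers summed to 6.64 to 7.81, 11.97 to 21.9, 3.05 to 3.54 and 28.4 to 47.4 in that order. The 3 neural markers summed to 19.2 to 19.7 in LIF+PD and to 3.26 to 12.4 elsewhere. Of these, Pax6 was 0.577 and 0.459 in 2i+LIF and 0.806 and 0.660 in CH+LIF, but 7.81 and 9.20 in 2i and 11.3 and 10.7 in LIF+PD. Sums of the 4 trophectoderm markers were 12.6 to 27.9, and those of the 5 primitive endoderm markers 1.10 to 3.04. Eomes was counted in both the mesoderm and the trophectoderm sums. Sums hide single markers that moved apart from their group. Cdx2 was 10.2 and 7.91 in 2i+LIF and 12.2 and 10.6 in 2i, but 0.0433 and 0.0960 in LIF+PD and 1.90 and 0.733 in CH+LIF. Otx2 was 2.44 and 1.80 in 2i+LIF and 50.3 and 49.2 in LIF+PD, where Lef1 was 4.52 and 4.97. Of the naive markers, Klf4 was 203 and 196 in 2i+LIF and 47.7 and 50.6 in 2i. Of the 6 fibroblast markers, Lum and Dcn were at 0 in all 8 cultures, and their sum was at most 4.19 except for 17.2 in replicate 2 of CH+LIF, through Postn at 14.1. The part of these cells in the results that follow was not tested, and in bulk RNA fewer cells of a type and less RNA per cell cannot be told apart.

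Without CH, most of the genes rose and Cdkn1a fell. In LIF+PD against 2i+LIF, 6 of the 10 genes were higher (Mdm2, Ccng1, Plk2, Trp53inp1, Eda2r and Zmat3), 1.73-fold to 2.56-fold, and Cdkn1a was 3.00-fold lower, while Trp53, Mdm4 and Phlda3 did not pass the test. Folds and differences are on the scale of log2(FPKM + 1), and a gene is called at a Benjamini-Hochberg adjusted p below 0.05 in limma over all 12927 genes. In that comparison 14.8% of all tested genes were called higher and 10.4% lower. The median difference of the 10 genes was 0.83, against 0.03 for all tested genes.

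Without PD, the changes that passed were downward, except that Zmat3 passed as higher after rescaling to TPM. Compared with 2i+LIF, 5 of the 10 genes were lower in CH+LIF, namely Cdkn1a, Ccng1, Plk2, Trp53inp1 and Phlda3, by 1.47-fold to 1.97-fold, and 0 were higher in limma (1 at an unadjusted p below 0.05, Zmat3), against 13.3% lower and 12.2% higher among all tested genes. The median difference was -0.37, against 0.01 for all tested genes. This count depended on single cultures. Without replicate 2 of 2i+LIF, the log2 differences of Plk2, Trp53inp1 and Ccng1 were -0.82, -0.43 and -0.36. Without replicate 1 of CH+LIF they were -0.73, -0.48 and -0.48, so their direction was kept. In both fits fewer of all tested genes passed as well. With TPM, 3 genes were lower, Ccng1 and Trp53inp1 no longer passing, and 1 was higher, Zmat3.

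Without LIF, fewer of the genes moved. In 2i against 2i+LIF, 3 of the 10 genes were higher, Trp53inp1, Eda2r and Zmat3, by 1.57-fold to 1.81-fold, and 0 were lower in limma (0 at an unadjusted p below 0.05), against 9.77% higher and 8.86% lower among all tested genes. The median difference was 0.24, against 0.04 for all tested genes. Without replicate 1 of 2i+LIF the count was 1, Zmat3. These 3 comparisons share the 2 cultures of 2i+LIF, so their values are not independent of one another.

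The 2 conditions with a single inhibitor and LIF were compared directly, with no use of the 2i+LIF cultures but for the shared estimate of the spread. From LIF+PD to CH+LIF, 7 of the 10 genes were lower (Mdm2, Ccng1, Plk2, Trp53inp1, Phlda3, Eda2r and Zmat3) and Cdkn1a was higher, against 17.8% lower and 12.6% higher among all tested genes, with a median difference of -1.12 against -0.01. Against 2i, which was less deeply sequenced in replicate 1, CH+LIF was lower in 8 of the 10 genes and higher in 0 in limma, also at an unadjusted p below 0.05 (13.3% lower and 10.6% higher among all tested genes), a count that was 5 after rescaling to TPM and 5 without replicate 1 of CH+LIF. LIF+PD against 2i differed in 3 of the genes, with Ccng1 and Plk2 higher and Cdkn1a lower, against 14% higher and 11.1% lower among all tested genes. The 2 higher and the 1 lower gene are near these shares. The rise of Ccng1 was 0.58 with all cultures. It was 0.51 without replicate 1 of 2i, and 0.56 and 0.60 without replicates 1 and 2 of LIF+PD. Mdm2 and Eda2r were higher by 0.51 and 0.47 and did not pass (limma adjusted p = 0.104 and 0.0719). In a single F test for any difference among the 4 conditions, 8 of the 10 genes were called, against 46.8% of all tested genes, the exceptions being Trp53 and Mdm4.

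**Figure D1:**
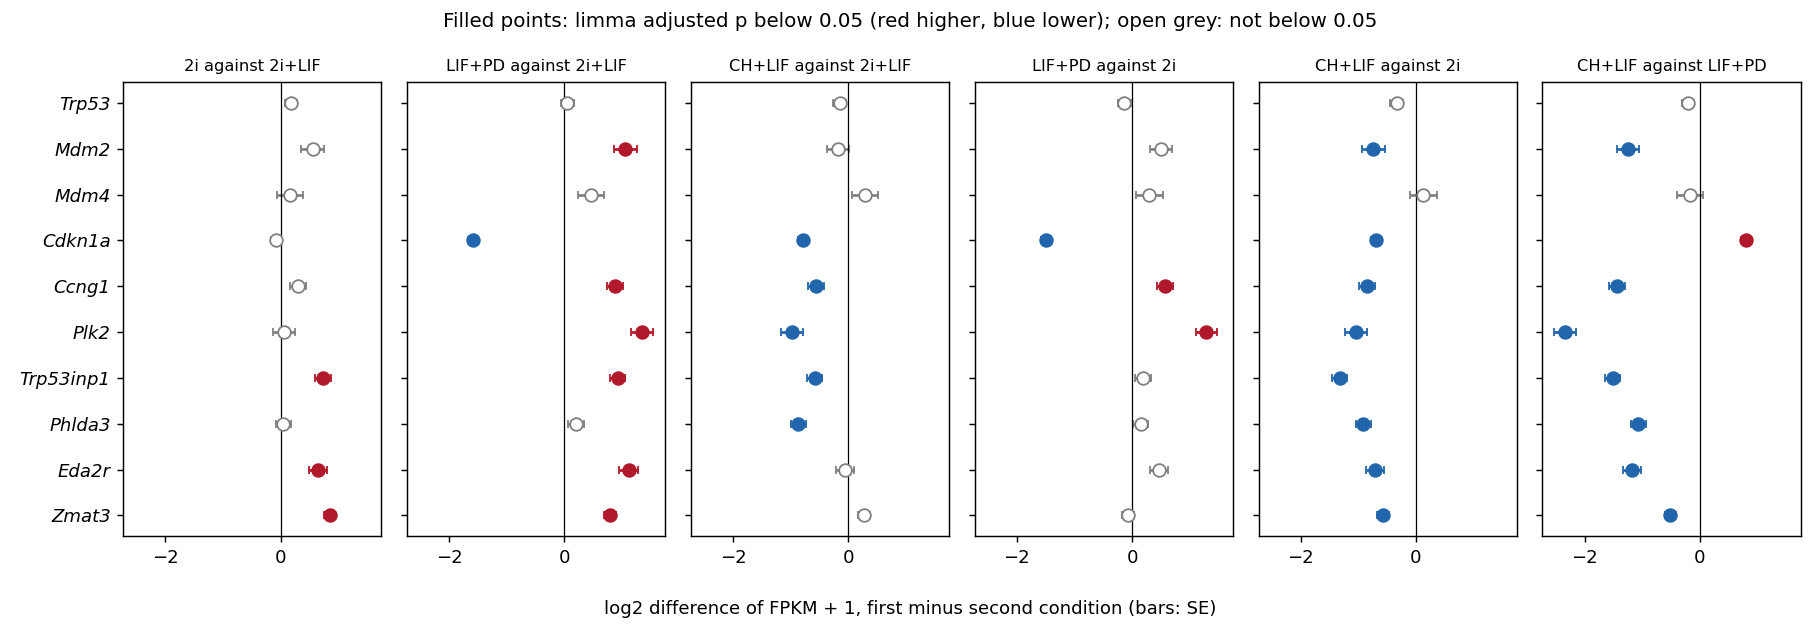
Log2 differences of FPKM + 1 for the 10 genes in the 6 comparisons, first condition minus second, with the standard error as bars; filled points have a limma adjusted p below 0.05. In the LIF+PD against 2i+LIF panel, 6 filled points lie above 0 and Cdkn1a alone lies below, at -1.58, and in the CH+LIF against LIF+PD panel 7 filled points lie below 0 and Cdkn1a above, at 0.80.

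No difference of Trp53 itself passed the test. Its level was 345 and 293 in the 2 cultures of 2i+LIF, 375 and 348 in 2i, 344 and 316 in LIF+PD, and 269 and 305 in CH+LIF. The ranges of neighbouring conditions overlap from CH+LIF to LIF+PD, and only 2i lies above all the others. With a mean of 324 over the 8 cultures, Trp53 was the highest of the 10 genes per length and ranked 319 of the 12927 tested genes. The difference between LIF+PD and 2i+LIF was 0.05, with a 95% interval of -0.21 to 0.32 (limma adjusted p = 0.768), which leaves room for a change of either sign. The largest difference between any pair of conditions was that of CH+LIF against 2i, -0.33 (limma adjusted p = 0.0707), and the F test gave an adjusted p of 0.15 (limma).

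Wrap53, which encodes a telomerase and Cajal body protein, starts 103 bases from Trp53 on the opposite strand (in mm10, as all gene positions here, Trp53 at chr11:69580359-69591873, Wrap53 at chr11:69561758-69580255). Its level was 16.3 and 12.9 in 2i+LIF, 15.1 and 15.4 in 2i, 20.1 and 18.4 in LIF+PD, and 11.4 and 12.4 in CH+LIF. The LIF+PD cultures were the highest and the CH+LIF cultures the lowest, with no overlap. The difference between CH+LIF and LIF+PD was -0.65 (SE 0.128, limma adjusted p = 0.00911). In the same comparison the Trp53 difference was -0.20 (limma adjusted p = 0.214). Whether FPKM values were made by strand is not given in the sources used here.

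Mdm2 (chr10:117688888-117710758) was highest without CH. Its level was 36.3 and 56.6 in 2i+LIF, 71.3 and 63.3 in 2i, 97.0 and 94.6 in LIF+PD, and 36.6 and 43.5 in CH+LIF. Both LIF+PD cultures lie above all 6 others, both 2i cultures lie above those of 2i+LIF and CH+LIF, and the last 2 conditions overlap. Mdm2 was 2.09-fold higher in LIF+PD than in 2i+LIF (log2 difference 1.06, SE 0.195, limma adjusted p = 0.00875) and 2.37-fold lower in CH+LIF than in LIF+PD (log2 difference -1.24, limma adjusted p = 0.00376). The difference between 2i and 2i+LIF, 0.56, did not pass (limma adjusted p = 0.0924), but it was 0.87 and passed without replicate 2 of 2i+LIF. The fall of 0.74 from 2i to CH+LIF passed with all cultures (limma adjusted p = 0.0341) and was lost in 8 of 14 alternatives, TPM included, with adjusted p-values up to 0.159 (limma). In replicate 1 of LIF+PD the Mdm2 level lies above the upper bound deposited with it.

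Mdm2 per p53 transcript was likewise highest without CH. The ratio of the Mdm2 level to the Trp53 level was 0.105 and 0.193 in 2i+LIF, 0.190 and 0.182 in 2i, 0.282 and 0.299 in LIF+PD, and 0.136 and 0.143 in CH+LIF. A ratio within a culture does not depend on how cultures are scaled to one another, and the LIF+PD cultures were again above all others. The 2i cultures were not set apart from those of 2i+LIF in this ratio, since replicate 2 of 2i+LIF lies above both.

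Mdm4 (chr1:132989845-133025366) showed no change that passed. Its level was 13.1 and 21.9 in 2i+LIF, 16.5 and 22.2 in 2i, 24.6 and 23.1 in LIF+PD, and 21.9 and 20.3 in CH+LIF. The cultures of 2i+LIF and of 2i overlap, and those of 2i+LIF lie far apart, with an SD of 35.5% of the mean. The difference between LIF+PD and 2i+LIF was 0.47, with a 95% interval of -0.08 to 1.01 (limma adjusted p = 0.186), and it was 0.82 and passed without replicate 2 of 2i+LIF (limma adjusted p = 0.0386). Mdm2 and Mdm4 were both lower in replicate 1 than in replicate 2 of 2i+LIF, as were Cdkn1a, Ccng1, Plk2, Trp53inp1, Phlda3, Eda2r and Zmat3.

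**Figure D2:**
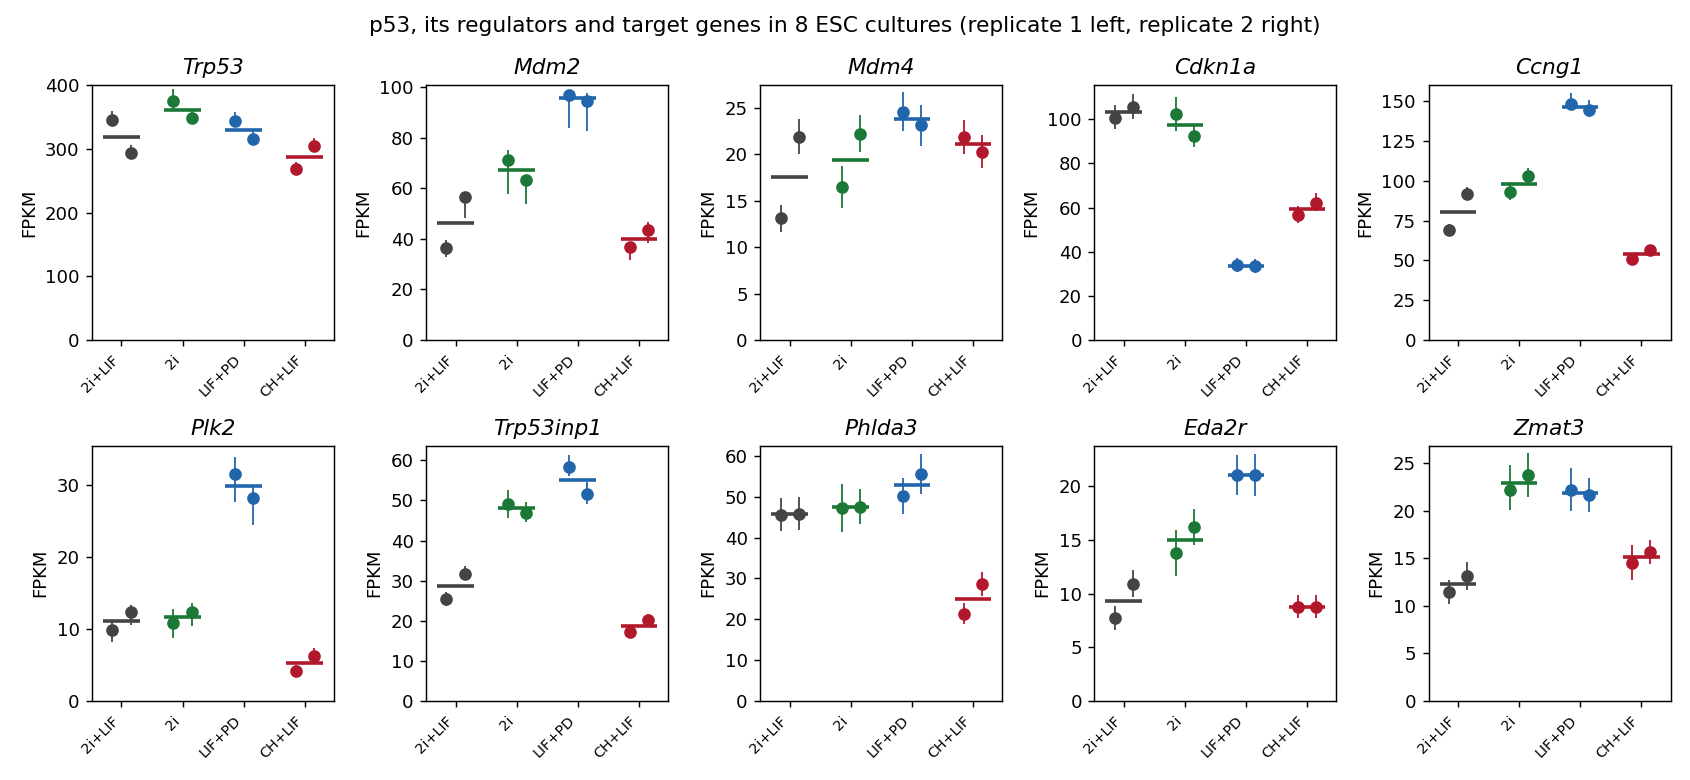
Level (FPKM) of each of the 10 genes in the 2 cultures of each condition, with replicate 1 on the left; points are cultures, vertical lines the bounds deposited with each value and horizontal bars the mean of a condition. Cdkn1a is lowest in LIF+PD at 33.9 and 33.6, where Mdm2, Ccng1, Plk2, Trp53inp1 and Eda2r are highest.

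Cdkn1a (chr17:29090979-29100722), which encodes the cell cycle inhibitor p21, was highest with both inhibitors present. Its level was 101 and 106 in 2i+LIF, 102 and 92.5 in 2i, 33.9 and 33.6 in LIF+PD, and 56.8 and 62.3 in CH+LIF. The LIF+PD cultures are the lowest, the CH+LIF cultures lie between, and 2i and 2i+LIF overlap. Cdkn1a fell by 1.58 on the log2 scale from 2i+LIF to LIF+PD (SE 0.0865, limma adjusted p = 8.98e-05) and by 0.78 from 2i+LIF to CH+LIF (limma adjusted p = 0.00156). It was 1.74-fold higher in CH+LIF than in LIF+PD (log2 difference 0.80, limma adjusted p = 0.000788). The 5 Cdkn1a differences that passed did so in all 14 alternatives of each, and that between 2i and 2i+LIF was -0.08, with a 95% interval of -0.29 to 0.12 (limma adjusted p = 0.542).

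Ccng1 (chr11:40748552-40755311), which encodes cyclin G1, a p53 target that acts with the phosphatase PP2A on Mdm2, moved against Cdkn1a in LIF+PD. Its level was 69.1 and 91.5 in 2i+LIF, 93.3 and 103 in 2i, 149 and 145 in LIF+PD, and 51.0 and 56.7 in CH+LIF. No conditions overlap, in the order CH+LIF, 2i+LIF, 2i and LIF+PD. Ccng1 was 1.83-fold higher in LIF+PD than in 2i+LIF (log2 difference 0.87, SE 0.137, limma adjusted p = 0.00463) and 2.70-fold lower in CH+LIF than in LIF+PD (log2 difference -1.43, limma adjusted p = 0.000493). The fall of 0.56 from 2i+LIF to CH+LIF (limma adjusted p = 0.0258) was lost after rescaling to TPM (limma adjusted p = 0.166, the highest of 14 alternatives), without a filter on low genes, without replicate 2 of 2i+LIF and without either culture of CH+LIF. The rise of 0.58 from 2i to LIF+PD (limma adjusted p = 0.0217) was lost without replicate 1 of 2i and without either culture of LIF+PD, with adjusted p-values up to 0.102 (limma).

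The relation between these 2 targets was set apart in LIF+PD. The ratio of the Ccng1 level to the Cdkn1a level was 0.685 and 0.868 in 2i+LIF, 0.912 and 1.11 in 2i, and 0.898 and 0.911 in CH+LIF, but 4.39 and 4.30 in LIF+PD. The ratio of Mdm2 to Cdkn1a was 0.361 and 0.536 in 2i+LIF, 0.697 and 0.685 in 2i, 0.645 and 0.699 in CH+LIF, and 2.87 and 2.81 in LIF+PD. In CH+LIF both ratios lay close to those in 2i, and Cdkn1a, Ccng1 and Mdm2 were all lower there than in 2i, with log2 differences of -0.70, -0.85 and -0.74.

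**Figure D3:**
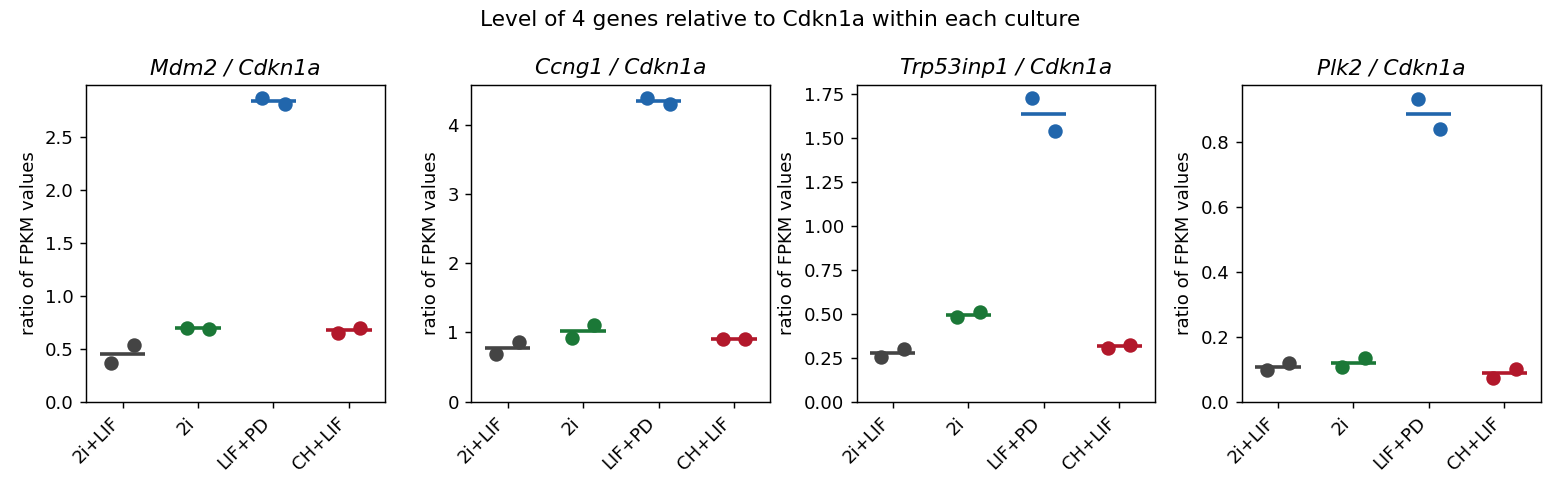
Ratio of the FPKM of Mdm2, Ccng1, Trp53inp1 and Plk2 to that of Cdkn1a within each culture, with a bar at the mean of the 2 cultures of a condition. The LIF+PD cultures stand above the other 6 in each panel, at 4.39 and 4.30 for Ccng1.

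Plk2 (chr13:110395044-110400844), a kinase of the polo family that p53 induces and that acts in centriole duplication, had the widest range of the 10 genes. Its level was 9.81 and 12.4 in 2i+LIF, 10.9 and 12.3 in 2i, 31.5 and 28.2 in LIF+PD, and 4.12 and 6.27 in CH+LIF. LIF+PD lies above and CH+LIF below the 2 overlapping conditions that hold both inhibitors. Plk2 was 2.56-fold higher in LIF+PD than in 2i+LIF (log2 difference 1.36, SE 0.190, limma adjusted p = 0.00303) and 5.05-fold lower in CH+LIF than in LIF+PD (log2 difference -2.34, limma adjusted p = 0.000272). The fall of 0.98 from 2i+LIF to CH+LIF (limma adjusted p = 0.0113) was lost without replicate 2 of 2i+LIF (limma adjusted p = 0.0671, the highest of 14 alternatives) and without replicate 1 of CH+LIF. The deposited bounds of Plk2 were 9.34% to 20.1% of its level on either side, the widest of the 10 genes.

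Trp53inp1 (chr4:11156431-11174379), which encodes a stress-induced nuclear protein that promotes p53 phosphorylation and cell death, was higher without LIF and without CH. Its level was 25.4 and 31.8 in 2i+LIF, 49.1 and 46.9 in 2i, 58.4 and 51.7 in LIF+PD, and 17.3 and 20.05 in CH+LIF. No conditions overlap, and CH+LIF is the lowest. Trp53inp1 was 1.67-fold higher in 2i (log2 difference 0.74, SE 0.132, limma adjusted p = 0.00972) and 1.90-fold higher in LIF+PD (log2 difference 0.93, limma adjusted p = 0.00315) than in 2i+LIF. It was 2.85-fold lower in CH+LIF than in LIF+PD (log2 difference -1.51, limma adjusted p = 0.000339). The rise in 2i was lost without replicate 1 of 2i+LIF (limma adjusted p = 0.0526, the highest of 14 alternatives), and the fall of 0.58 from 2i+LIF to CH+LIF (limma adjusted p = 0.0192) was lost with TPM, without replicate 2 of 2i+LIF and without replicate 1 of CH+LIF, with adjusted p-values up to 0.107 (limma).

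Phlda3 (chr1:135766119-135769136), which encodes a pleckstrin homology protein that competes with Akt for membrane lipids, was lower in CH+LIF than in each of the other 3 conditions. Its level was 45.6 and 45.9 in 2i+LIF, 47.2 and 47.6 in 2i, 50.1 and 55.5 in LIF+PD, and 21.3 and 28.6 in CH+LIF. The 6 cultures with PD lie between 45.6 and 55.5, and the CH+LIF cultures lie below them. To CH+LIF, Phlda3 fell by 0.86 on the log2 scale from 2i+LIF (SE 0.134, limma adjusted p = 0.0051), fell by 0.91 from 2i (limma adjusted p = 0.00414) and fell by 1.07 from LIF+PD (limma adjusted p = 0.00149). The difference between LIF+PD and 2i+LIF was 0.20, with a 95% interval of -0.11 to 0.52 (limma adjusted p = 0.313).

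Eda2r (chrX:97333840-97377216), the receptor for ectodysplasin A2 of the tumour necrosis factor receptor family, was raised without CH. Its level was 7.70 and 10.9 in 2i+LIF, 13.8 and 16.2 in 2i, 21.03 and 21.02 in LIF+PD, and 8.79 and 8.76 in CH+LIF. LIF+PD is the highest and 2i next, and CH+LIF lies within the range of 2i+LIF. Eda2r was 2.17-fold higher in LIF+PD than in 2i+LIF (log2 difference 1.11, SE 0.159, limma adjusted p = 0.00318). The rise of 0.65 in 2i (limma adjusted p = 0.0314) was lost in 8 of 14 alternatives, which were the fit without a filter and those without 1 of 7 cultures (all but replicate 2 of 2i+LIF), with adjusted p-values up to 0.127 (limma). The fall of 0.70 from 2i to CH+LIF (limma adjusted p = 0.0202) was lost with TPM, without replicate 2 of 2i and without either culture of CH+LIF, with adjusted p-values up to 0.0834 (limma).

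Zmat3 (chr3:32334796-32365678), a zinc finger protein that binds RNA and regulates splicing and decay, was highest in the 2 conditions with PD that lacked LIF or CH. Its level was 11.4 and 13.1 in 2i+LIF, 22.2 and 23.7 in 2i, 22.2 and 21.6 in LIF+PD, and 14.5 and 15.7 in CH+LIF. The 2i and LIF+PD cultures overlap and lie above both other conditions. Zmat3 was 1.81-fold higher in 2i (log2 difference 0.85, SE 0.102, limma adjusted p = 0.00205) and 1.73-fold higher in LIF+PD (log2 difference 0.79, limma adjusted p = 0.0021) than in 2i+LIF. Between CH+LIF and 2i+LIF the difference was 0.28 (limma adjusted p = 0.0858), and it was 0.48 with TPM, where it passed (limma adjusted p = 0.0408). The falls from 2i to CH+LIF (0.57) and from LIF+PD to CH+LIF (0.51) were lost with TPM (limma adjusted p = 0.0575 and 0.0511) and without replicate 1 of CH+LIF, the second also without replicate 1 of LIF+PD, with adjusted p-values up to 0.0601 (limma).

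The wider set of p53-induced genes was read from a list of 48, of which 46 were matched by symbol and 44 tested, with Fas and Dram1 below the filter. In LIF+PD against 2i+LIF, 26 of the 44 were higher and 2 lower, against 14.8% and 10.4% of all tested genes, with a median difference of 0.53 (0.03 for all tested genes). The count of 26 was 13 without replicate 1 of 2i+LIF, and 14 and 16 without replicates 1 and 2 of LIF+PD. Compared with 2i+LIF, 3 were higher and 12 lower in CH+LIF, against 12.2% and 13.3%, with a median of -0.20 (0.01 for all tested genes). The 12 became 8 with TPM, 4 without replicate 2 of 2i+LIF and 5 without replicate 1 of CH+LIF. In 2i against 2i+LIF, 9 were higher and 3 lower, against 9.77% and 8.86%, with a median of 0.23 (0.04 for all tested genes). The 3 lower genes are near the share of all genes, and the 9 became 5 without replicate 2 of 2i and 5 without replicate 1 of 2i+LIF. From LIF+PD to CH+LIF, 3 were higher and 33 lower, against 12.6% and 17.8%, with a median of -0.74 (-0.01 for all tested genes), and the 33 stayed at 22 or above in every alternative. In LIF+PD against 2i, 18 were higher and 2 lower, against 14% and 11.1%, and in CH+LIF against 2i, 3 were higher and 22 lower, against 10.6% and 13.3%. Over these settings the 18 fell as low as 9, without replicate 1 of LIF+PD, and the 22 as low as 9, without replicate 1 of CH+LIF (14 with TPM). In each fit named here without 1 culture, the number called among all tested genes fell as well. Tests on lists chosen with these data in view are a description of the genes, and the members of the lists share the same 8 cultures.

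By function, 7 of 9 apoptosis genes, 7 of 11 cell cycle and damage response genes, 11 of 19 metabolism and other genes and 1 of 5 DNA repair genes of the list were higher in LIF+PD than in 2i+LIF, against 14.8% of all tested genes. These are the 26 genes of which 13 were left without replicate 1 of 2i+LIF. From LIF+PD to CH+LIF, 8 of 9, 10 of 11, 13 of 19 and 2 of 5 were lower in the same order, against 17.8%. The 1 repair gene called higher in LIF+PD is near the share of all genes, and differences between classes were not tested.

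On the scale of log2(FPKM + 1), the 2 largest rises of this list from 2i+LIF to LIF+PD were those of Trp73 and Gadd45a. The pseudocount narrows the rises of lower genes, and by relative change in FPKM the order differs. Gadd45a, which encodes a growth arrest and DNA damage protein, was 7.09 and 7.28 in 2i+LIF, 31.2 and 26.1 in 2i, 44.8 and 42.6 in LIF+PD, and 19.8 and 22.6 in CH+LIF. It was higher in each of the 3 conditions than in 2i+LIF, by 1.85, 2.45 and 1.44 on the log2 scale (limma adjusted p = 0.000159, 5.98e-05 and 0.000585). Trp73, the p53 relative p73, was 2.46 and 3.97 in 2i+LIF, 5.78 and 11.8 in 2i, 28.2 and 22.2 in LIF+PD, and 1.52 and 2.57 in CH+LIF. It was 6.29-fold higher in LIF+PD than in 2i+LIF (log2 difference 2.65, limma adjusted p = 0.00197), and its cultures in 2i+LIF and CH+LIF overlap. Ddit4, an inhibitor of mTORC1 signalling, was 9.83 and 10.1 in 2i+LIF, 30.8 and 29.3 in LIF+PD, and 6.16 and 6.72 in CH+LIF, with a mean of 21.97 in 2i. It rose by 1.06 from 2i+LIF to 2i (limma adjusted p = 0.0013) and fell by 1.62 from 2i to CH+LIF (limma adjusted p = 0.000209). The order of its conditions, CH+LIF, 2i+LIF, 2i and LIF+PD, is that of Ccng1.

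Not all targets of the list followed this order, and some were highest in CH+LIF. Pmaip1, which encodes the BH3 protein Noxa, was 0.0730 and 0.0666 in 2i+LIF and 1.88 and 2.19 in CH+LIF, a difference of 1.503 (limma adjusted p = 0.00282). Sfn, which encodes 14-3-3 sigma, was 8.39 and 10.4 in 2i, 11.3 and 12.9 in LIF+PD, and 23.7 and 35.3 in CH+LIF, where it was 2.30-fold higher than in LIF+PD (log2 difference 1.20, limma adjusted p = 0.00415). Others were lower than in 2i+LIF in some conditions. Sp100, which encodes a nuclear body protein that interferon also induces, was 4.33 and 3.01 in 2i+LIF, listed at 0 in both 2i cultures, 0.428 and 0.524 in LIF+PD, and 0.0769 and 0 in CH+LIF. It was called lower than in 2i+LIF in each of these 3 conditions (limma adjusted p = 0.000618, 0.00144 and 0.00087). Dglucy, which encodes D-glutamate cyclase, was 8.64 and 10.7 in 2i+LIF, 2.28 and 2.36 in 2i, 20.1 and 16.9 in LIF+PD, and 1.00 and 1.54 in CH+LIF, and on the log2 scale it fell by 1.68 without LIF (limma adjusted p = 0.0011) and fell by 2.23 without PD (limma adjusted p = 0.000576). Without CH, Dglucy was higher than in 2i+LIF, by 0.87 (limma adjusted p = 0.0112). Pank1, a kinase of coenzyme A synthesis, was 10.7 and 12.7 in 2i+LIF and 6.72 and 5.60 in LIF+PD, a log2 difference of -0.82 (limma adjusted p = 0.00526).

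**Figure D4:**
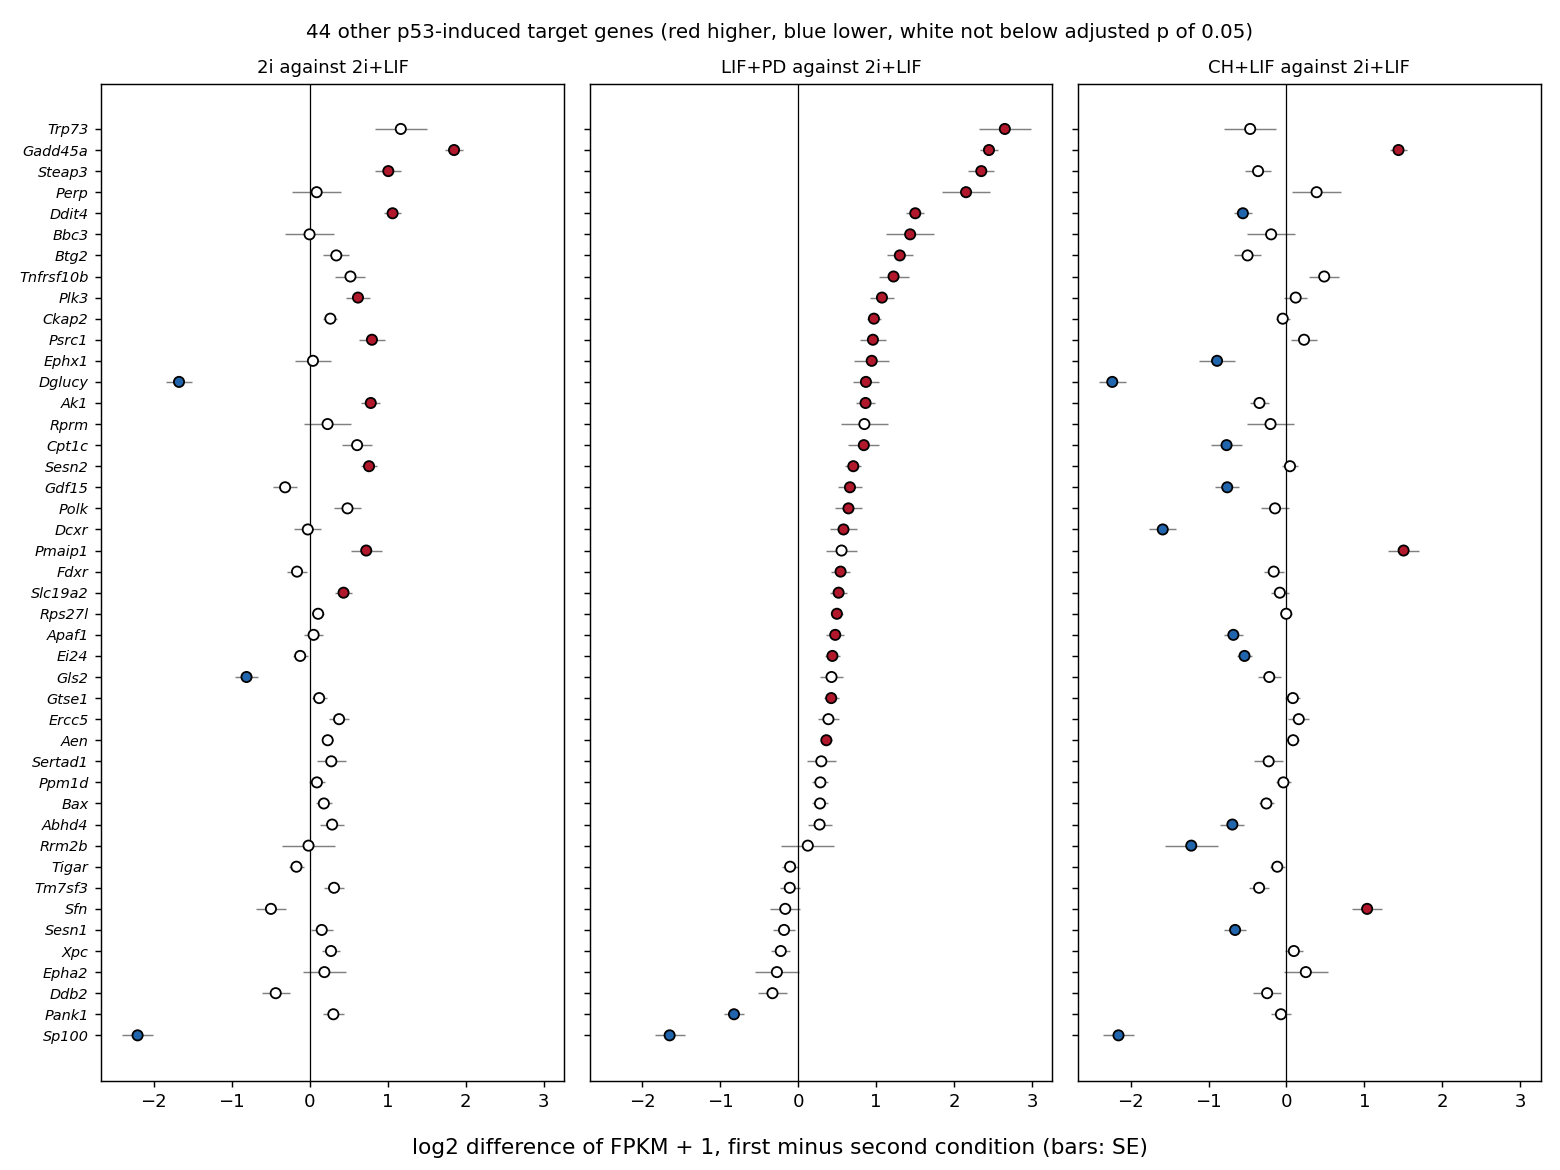
Log2 differences of FPKM + 1 against 2i+LIF for the 44 other p53-induced genes tested, ordered by their value in LIF+PD, with the standard error as bars; red is higher and blue lower at a limma adjusted p below 0.05. In LIF+PD 26 points are red and 2 blue (Pank1 and Sp100), in 2i 9 are red and 3 blue, and in CH+LIF 3 are red and 12 blue.

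Among 23 tested genes of 24 listed regulators of p53, the counts called were mostly near or below the share of all genes. Counts of higher and lower genes in limma were 3 and 0 in 2i (3 and 1 at an unadjusted p below 0.05), 4 and 1 in LIF+PD and 3 and 1 in CH+LIF, each against 2i+LIF, with medians of 0.12, 0.10 and 0.10 (0.04, 0.03 and 0.01 for all tested genes). Of all tested genes, 9.77% and 8.86%, 14.8% and 10.4%, and 12.2% and 13.3% were higher and lower in these 3 comparisons. The counts of regulators were 2 and 2 in LIF+PD and 2 and 3 in CH+LIF against 2i, and 2 and 4 in CH+LIF against LIF+PD. The shares of all genes there were 14% and 11.1%, 10.6% and 13.3%, and 12.6% and 17.8%, so these counts are no result about the regulators. The 3 in 2i became 1 without either 2i culture and 0 without replicate 2 of 2i+LIF, and the 3 in CH+LIF became 0 without its replicate 1 and 1 without any other culture of the 2 conditions. The 1 lower gene in LIF+PD, Chek2, was lost without any culture of the 2 conditions, and the count of 1 lower gene in CH+LIF, Cdkn2a with all cultures, was 1 in every alternative. The count of lower genes in LIF+PD against 2i+LIF was also 0 with TPM, 2 with size factors and 4 with the replicate block. Cdkn2a encodes p16 and Arf, the second of which inhibits Mdm2, and gene-level values do not tell these 2 products apart. Its level was 40.7 and 32.6 in 2i+LIF, 73.7 and 60.9 in 2i, 25.8 and 26.3 in LIF+PD, and 13.9 and 11.4 in CH+LIF, with no overlap between conditions. It was 1.81-fold higher in 2i (log2 difference 0.86, limma adjusted p = 0.00866) and 2.76-fold lower in CH+LIF (log2 difference -1.46, limma adjusted p = 0.00128) than in 2i+LIF. Hipk2, a kinase that phosphorylates p53, was 4.97 and 3.61 in 2i+LIF and 11.7 and 11.1 in LIF+PD, 2.36-fold higher (log2 difference 1.24, limma adjusted p = 0.00241). Trp53bp1, which encodes the damage response protein 53BP1, was 28.4 and 24.9 in 2i+LIF, 39.0 and 36.3 in 2i and 42.1 and 46.2 in LIF+PD, higher by 0.49 and 0.71 on the log2 scale (limma adjusted p = 0.0212 and 0.00394).

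The p21 protein lowers many mitotic genes through the DREAM complex, and 15 such genes were listed and tested. Whether p21 had a part in their levels here was not tested, and neither p21 protein nor cell cycle phase was measured. In LIF+PD, 9 of the 15 were higher than in 2i+LIF and 0 lower in limma (0 at an unadjusted p below 0.05). The shares of all tested genes were 14.8% and 10.4%, and the median difference was 0.34 (0.03 for all tested genes). The 9 became 4 without replicate 2 of 2i+LIF and 5 without either culture of LIF+PD. In CH+LIF against 2i+LIF, 2 of the 15 were higher and 0 lower in limma (3 and 0 at an unadjusted p below 0.05), against 12.2% and 13.3%, so the number higher is near the share of all genes. The median was 0.13 (0.01 for all tested genes), and the 2 became 8 with TPM and 1 without replicate 2 of 2i+LIF or replicate 1 of CH+LIF. In 2i against 2i+LIF, 0 passed in either direction in limma (2 higher and 1 lower at an unadjusted p below 0.05). Of all tested genes, 9.77% were higher and 8.86% lower there. Against 2i, 8 were higher in LIF+PD (5 without its replicate 1), against 14%, and 2 in CH+LIF (0 without either of its cultures and 5 with TPM), against 10.6%. In CH+LIF, 3 were lower than in LIF+PD (2 with TPM and 6 with the replicate block), against 17.8%. This 3 and the 2 higher in CH+LIF than in 2i are near the share of all genes. Kif23, which encodes a kinesin of cytokinesis, was 29.0 and 27.6 in 2i+LIF and 46.8 and 49.1 in LIF+PD, 1.67-fold higher (log2 difference 0.74, limma adjusted p = 0.00103). Bub1b, which encodes the checkpoint kinase BubR1, was 55.0 and 68.3 in 2i+LIF, 120.1 and 124 in LIF+PD and 132 and 132 in CH+LIF, higher by 0.98 and 1.09 on the log2 scale (limma adjusted p = 0.00341 and 0.0028).

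The genes whose profile over the 8 cultures lay nearest to those of the 2 members with the widest range were looked up among all tested genes, by the root mean square difference of the centred log2(FPKM + 1). Nearest to Plk2 was Cd109, at 0.128, with levels of 1.23 and 1.36 in 2i+LIF, 6.23 and 5.12 in LIF+PD and 0.162 and 0.320 in CH+LIF. 1700007K13Rik at 0.169 and Rtkn at 0.181 came next. Nearest to Cdkn1a was Dusp10, a phosphatase of p38 and JNK, at 0.13, with levels of 4.03 and 4.43 in 2i+LIF, 4.55 and 4.87 in 2i, 1.07 and 0.648 in LIF+PD and 1.86 and 2.27 in CH+LIF. Pnrc1 and Lrrn2 followed, both at 0.145. In units of FPKM these genes ranged from below 1 to 82.0. Likeness refers to the profile on the scale of log2(FPKM + 1), where the pseudocount narrows the changes of low genes. Cd109 and Dusp10 are such genes, and their relative changes in FPKM were wider than those of Plk2 and Cdkn1a.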

How the data were processed

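RNA of 8 cultures was measured by single-end RNA-seq. The authors aligned reads with tophat2 to mm10 with Ensembl 75 annotation and kept unique alignments, and they deposited FPKM values per gene and culture, each with 2 bounds. The submitters' processing notes name TopHat2, Cufflinks and Cuffdiff, and which program gave the FPKM is not given in the sources used here. The methods describe rRNA-depleted RNA, the sample records polyA RNA. The methods test read counts, which were not used here. Because the values are FPKM and read totals are unknown, no counting error is given.

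Repeated entries of a gene (22) were summed. The test was limma 3.58.1 in trend mode (R 4.3.3), run on log2(FPKM + 1), in 1 fit of all 8 cultures with 4 residual degrees of freedom, over 6 comparisons, with a Benjamini-Hochberg adjustment over 12927 genes in each. The pseudocount understates changes of low genes. The procedure was also run on simulated data with a small share of genes changed in LIF+PD alone. Far more genes were called in the real comparisons, so that run gives no error rate for them. Tables and figures used Python 3.11.15, pandas 2.3.3, numpy 2.4.6 and matplotlib 3.10.9. Sequences are RefSeq's.

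The genes and lists were chosen with earlier results of these data known. All 10 genes and Wrap53 are named. From each list, up to 2 genes with the largest rise and 2 with the largest fall per comparison could be named, given an adjusted p below 0.05, no overlap between cultures and a mean of 2 or more in either condition, and for the 2 genes of widest range the 3 nearest profiles.

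Alternatives were pseudocounts of 0.1 and 5, no filter, TPM, size factors, the replicate number as a block and leaving out each culture.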

Additional observations from a re-analysis of the deposited data

How the results depend on the processing

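No difference of the 10 genes that passed turned its direction under any alternative. Of the 360 gene-level values recomputed with other pseudocounts, no filter, TPM, size factors or the block, 350 kept their call, 9 lost it and 1 gained it. Of the 480 computed without 1 culture, 444 kept it, 30 lost it and 6 gained it. Rescaling to TPM left 5 of the 10 genes called in CH+LIF against 2i, in place of 8, since each culture is then set to the same sum and the median of all genes shifts to 0.093 in that comparison. It shifts the median to 0.156 in LIF+PD and 0.182 in CH+LIF against 2i+LIF, from 0.0341 and 0.00696, and the split of all genes called higher and lower from 1913 and 1350 to 2640 and 878 in LIF+PD, and from 1573 and 1713 to 2918 and 1029 in CH+LIF. Against 2i, it moves the split from 1374 and 1715 to 2062 and 1181 in CH+LIF, and from 1804 and 1438 to 1946 and 1074 in LIF+PD, and in 2i against 2i+LIF from 1263 and 1145 to 1404 and 887. Without 1 culture, the number of the 10 genes called was 1 to 4 in 2i, 7 to 8 in LIF+PD and 2 to 5 in CH+LIF against 2i+LIF, 2 to 5 in LIF+PD and 5 to 8 in CH+LIF against 2i, 7 to 8 in CH+LIF against LIF+PD, and 8 in each F test. Over all genes it was 1152 to 2150, 1661 to 3372, 1506 to 3363, 1873 to 2987, 1478 to 2726 and 2262 to 4026 in the same order, against 2408, 3263, 3286, 3242, 3089 and 3928 with all cultures. Replicate numbers are shared between conditions, but no source ties them to a batch, and the deviations of same-numbered cultures correlated at -0.0283 to 0.0925, so the pairing was not used. With the replicate number as a block, 3, 7, 5, 3, 8 and 8 of the 10 genes were called, the same counts as without it, and 2547, 3470, 3519, 3467, 3338 and 4105 of all genes. With 2 cultures a condition, differences near the SE of a gene cannot be told from 0.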

Other observations

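The promoter windows that hold the full p53 element were also read from the side of the sequence, after the values had been seen. Of the 32851 windows, 22 hold it, in 22 genes, of which 12 were listed and 7 tested: Ccng1, Cdkn1a, Calhm2, Gtse1, Mthfd1, Rps27l and Sptbn4. In LIF+PD against 2i+LIF, 5 of the 7 were higher, Cdkn1a alone was lower and Calhm2 did not pass, against 14.8% higher and 10.4% lower among all tested genes. Rps27l, which encodes a ribosomal protein relative that p53 induces, was 311 and 298 in 2i+LIF, 319 and 338 in 2i, 439 and 422 in LIF+PD, and 295 and 313 in CH+LIF, a rise of 0.50 on the log2 scale in LIF+PD (limma adjusted p = 0.00454). Gtse1, a p53-regulated gene of the G2 and S phases, was 92.5 and 93.4 in 2i+LIF and 125 and 125 in LIF+PD, higher by 0.42 (limma adjusted p = 0.018). Sptbn4, a beta spectrin, was 5.01 and 7.10 in 2i+LIF and 10.4 and 9.93 in LIF+PD, higher by 0.68 (limma adjusted p = 0.0317). In CH+LIF against LIF+PD, 5 of the 7 were lower, Cdkn1a was higher and Mthfd1 did not pass, at -0.23 (limma adjusted p = 0.0533), against 17.8% lower and 12.6% higher among all tested genes. The other comparisons held fewer calls. In 2i against 2i+LIF none of the 7 passed, against 9.77% higher and 8.86% lower among all tested genes. In CH+LIF, 3 were lower than in 2i+LIF and 3 lower than in 2i, against 13.3% in each. LIF+PD against 2i held 3 higher and 1 lower, against 14% and 11.1%. Ccng1 and Cdkn1a are among the 10 genes described above, and Rps27l and Gtse1 were already counted in the list of 44, so these counts are not independent of those.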
